A study of Mus musculus with 6 samples.

Results

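Serpins are the serine protease inhibitors whose gene symbols begin with Serpin, and 39 of them could be measured in colon RNA of HDAC1/2 KO and control mice. They were found as the probe sets of the array that the platform annotation assigns to a single gene symbol beginning with Serpin, which gave 55 probe sets of the 45037 tested, and the brightest probe set of each gene, by its mean signal on all 6 arrays, was then taken to stand for it. 27 of the genes had a single probe set and 12 had several. The 39 genes stand among 18193 genes measured in the same way. 1 gene whose symbol begins with Serpin is not analysed here, and 3 further probe sets that the annotation shares between several serpin genes were not used.

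A serpin carries an exposed loop that a protease cleaves as if it were a substrate, whereupon the inhibitor snaps into a new fold and traps the protease in a covalent complex. Clade A serpins are mostly secreted plasma proteins made in the liver, clade B serpins stay mostly in the cytosol of leukocytes and epithelial cells, and several family members have lost inhibition and carry hormones or assist collagen folding instead. In inflamed gut, serpins are known mainly as the counterparts of the elastases, cathepsins and granzymes that leukocytes release, and of the clotting and complement proteases.

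By the paper, the arrays compared the colon of 3 HDAC1/2 KO mice with that of 3 control mice, all 4 months old. The labels number the samples of each group. The KO mice carried floxed Hdac1 and Hdac2 alleles and a villin-Cre transgene. The transgene targets both genes in the epithelial cells of the small and large intestine only, so the other cells of the colon kept them. By the paper's immunofluorescence, HDAC1 was not detected in the epithelium of KO mice. HDAC2 was absent from most epithelial cells there, but was patchy and remained in some crypts and villi. The paper also reports that both proteins were depleted by Western blot of isolated epithelial cells. The control mice are labelled wild type, and whether they carried floxed alleles or Cre is not given in the sources used here. The mice were untreated and fed a normal diet. The sample labels speak of epithelium, but the extraction protocol describes total RNA of the colon. Because such RNA comes from all the cells in the sample, fewer cells of a type and less RNA per cell cannot be told apart.

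Values were deposited on the log2 scale after RMA, a background correction and normalization over all arrays, and ran from 2.79 to 14.85. Hdac1 had log2 signals of 9.27, 9.21 and 9.32 in KO colon, against 10.60, 10.53 and 10.56 in control colon. Hdac2 had a log2 fold change of 0.05 and missed the threshold (limma adjusted p = 0.475), and the position of its probe set in the gene is not known here. All 11 colon epithelium markers were above background in both groups. The Y-linked Eif2s3y had log2 signals of 8.32, 8.49 and 8.22 in KO colon, against a mean of 4.09 in control colon. Xist, the RNA of the inactive X chromosome, had 12.01, 11.99 and 12.06 in KO colon, against a mean of 12.85 in control colon. Sex and genotype thus cannot be told apart. Both RNAs were high on every KO array, so an array may hold RNA of more than 1 mouse, which was not tested. The SDs and SEs below are those of arrays, and whether they are those of single mice is not known here. The groups were compared by limma in all 45037 probe sets together, and passing means a Benjamini-Hochberg adjusted p under 0.05 in that fit. Log2 fold changes are KO minus control throughout, with the standard error (SE) after the sign ±.

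Of the 39 serpin genes, 16 passed the test, or 41.0%, against 50.4% of all 18193 genes. 11 serpin genes were higher in KO colon, which is 28.2% against a background of 21.9%, and 5 were lower, which is 12.8% against 28.4%. The median log2 fold change was 0.016 over the serpins and -0.022 over all genes, and the median absolute log2 fold change was 0.104 over the serpins and 0.169 over all genes. More than 2-fold differences were seen in 5 members. Serpina3n, Serpinb11 and Serpina1b were over 2-fold higher in KO colon, or 7.69% of the serpins beside 2.25% of all genes, and Serpina9 and Serpinb2 were over 2-fold lower, or 5.13% beside 1.82%. These are fitted fold changes, and those of Serpinb11, Serpina9 and Serpinb2 include signals near background. The 3 KO and 3 control arrays did not overlap in 21 serpin genes, 13 of them higher and 8 lower in KO colon, which is 53.8% beside 60.9% of all genes.

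**Figure D1:**
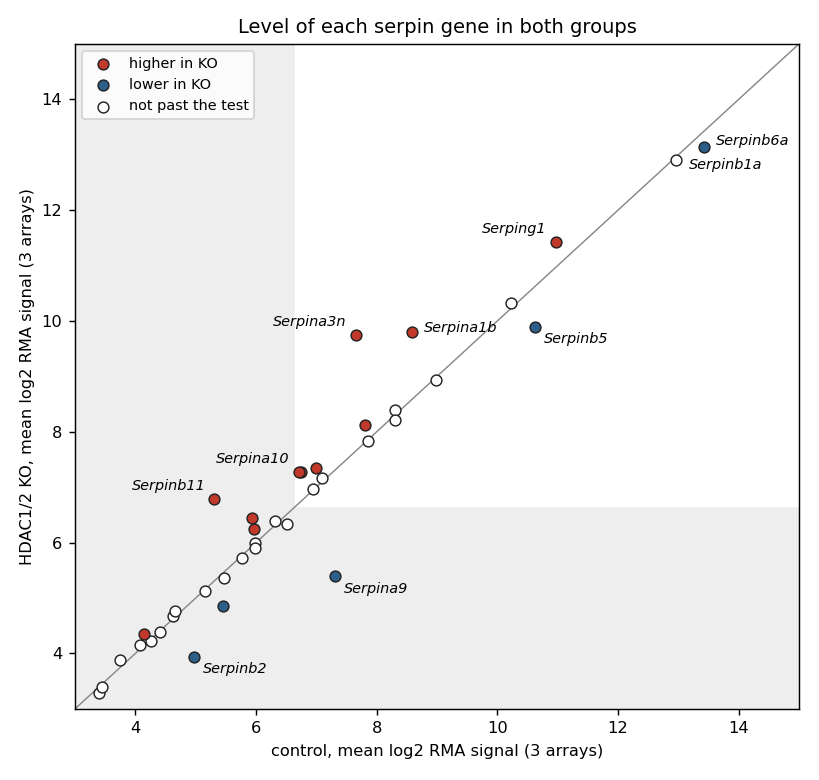
Mean log2 RMA signal of each of the 39 serpin genes in HDAC1/2 KO colon (vertical axis, 3 arrays) against control colon (horizontal axis, 3 arrays), with the line of equal signal and the range under the background level shaded. Serpina3n, Serpinb11 and Serpina1b lie farthest above the line and Serpina9 and Serpinb2 farthest below it, and 20 genes lie under the background level of 6.63 in both groups.

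Many serpins gave little signal in the colon. A log2 signal of 6.63 was taken as the background level, which is the 95th percentile of the mean signal of 83 probe sets for odorant, pheromone and taste receptors, whose median was 4.68. By this level 20 of the 39 serpin genes were near background in both groups, and 15 of these did not pass the test. The other 5 were Serpina12, Serpinb8 and Serpinb1b, which were higher, and Serpinb3a and Serpinb2, which were lower. Over all genes, 5134 were near background in both groups and 16.9% of those passed, beside 25.0% of the 20 serpins. Of the 19 serpin genes above background in a group 57.9% passed, beside 63.5% of all such genes. Serpina9 was above the level in control colon and near it in KO colon, and Serpinb11 was above it in KO colon and near it in control colon, so both stand among the 19 genes above background through 1 group alone. Signals of different probe sets do not compare the amounts of their transcripts.

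**Figure D2:**
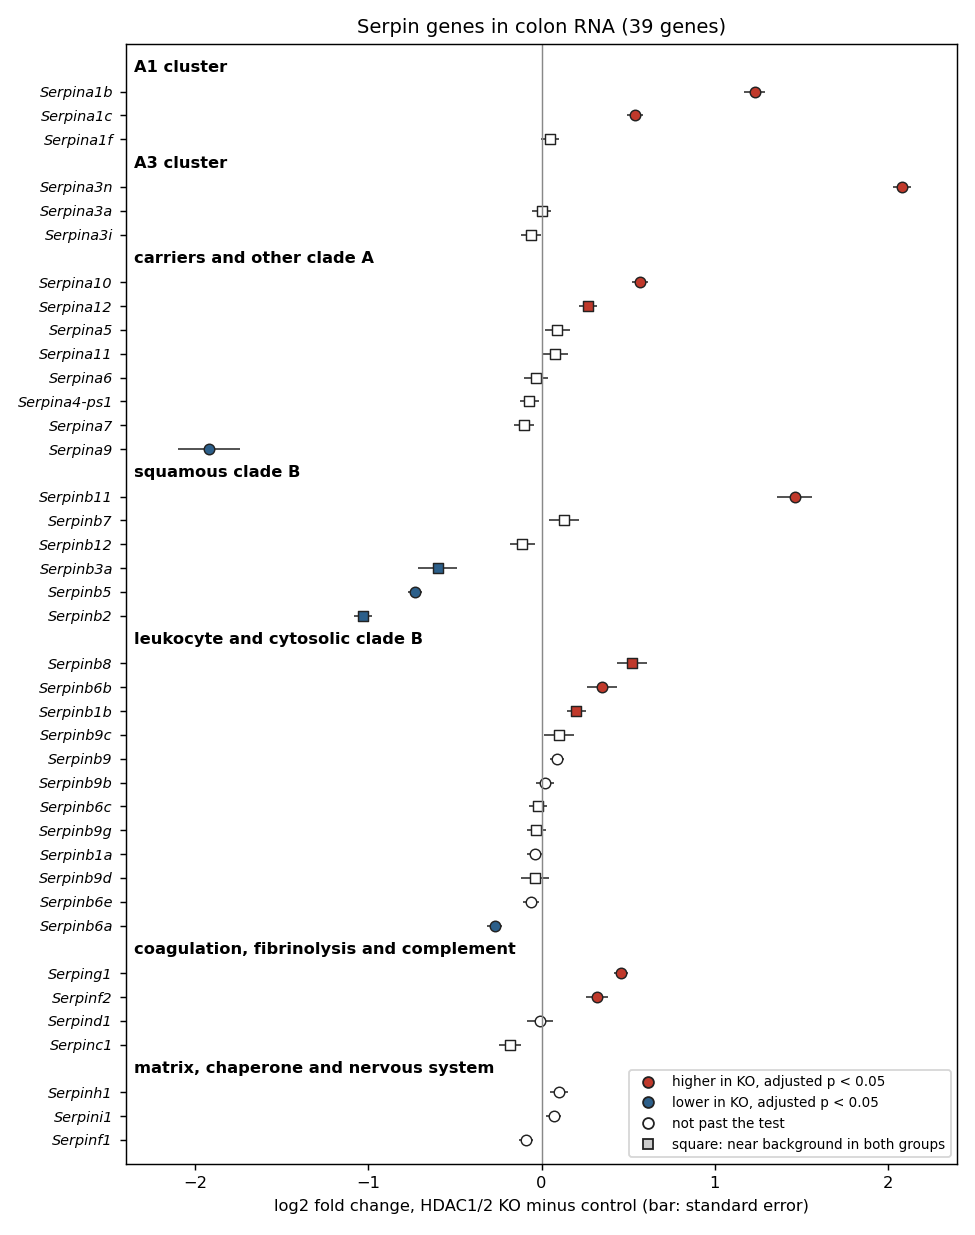
Log2 fold change of each of the 39 serpin genes, HDAC1/2 KO minus control, with the standard error from limma as a bar, grouped by role. Filled points passed an adjusted p under 0.05, and squares are near background in both groups. Serpina3n at 2.08 and Serpina9 at -1.92 are the outermost fitted values of the 39 points, the KO signal of Serpina9 being near background.

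Among the secreted inhibitors of leukocyte proteases, Serpina3n and both measured antitrypsin genes were higher in KO colon. Serpina3n, the mouse counterpart of antichymotrypsin and an acute phase protein known to inhibit leukocyte elastase and granzyme B, had log2 signals of 9.76, 9.75 and 9.70 in KO colon, against 7.69, 7.70 and 7.56 in control colon. The groups were far apart and the arrays within each lay close together. The mean signal was 9.74 ± 0.034 in KO and 7.65 ± 0.08 in control colon (SD, n = 3 each), a 4.24-fold difference (log2 fold change 2.08 ± 0.052 SE, limma adjusted p = 1.93e-07). The other measured members of its cluster, Serpina3a and Serpina3i, were near background in both groups and had log2 fold changes of 0.00 and -0.06.

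Serpina1b, which encodes a mouse form of antitrypsin, the main plasma inhibitor of neutrophil elastase, had log2 signals of 9.82, 9.82 and 9.78 in KO colon, against 8.69, 8.50 and 8.54 in control colon. The KO arrays were all above the control arrays. The log2 fold change was 1.23 (standard error 0.059, limma adjusted p = 3.90e-06), and the second probe set of the gene gave 1.13. Both probe sets are of a type whose probes can bind several related transcripts, and the antitrypsin genes of the mouse are near copies of each other, so the signal may hold RNA of more than 1 of them. Serpina1c, another form of antitrypsin with a probe set of its own, was higher by a log2 fold change of 0.54 (standard error 0.048, limma adjusted p = 8.17e-05). Serpina1f, a more distant member of the cluster, was near background in both groups at a log2 fold change of 0.05.

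The starts of these genes are shown because Serpina3n, Serpina1b and Serpina1c were all higher in KO colon and lie on the same chromosome. The windows run from 250 bases before to 50 bases after the gene start in RefSeq (build GRCm38.p6), 5′ to 3′ on the strand of the gene, at chr12:104406458-104406757 on the plus strand for Serpina3n, chr12:103738140-103738439 on the minus strand for Serpina1b, and chr12:103904901-103905200 on the minus strand for Serpina1c. Serpina1c was added after its values were seen.
Serpina3n: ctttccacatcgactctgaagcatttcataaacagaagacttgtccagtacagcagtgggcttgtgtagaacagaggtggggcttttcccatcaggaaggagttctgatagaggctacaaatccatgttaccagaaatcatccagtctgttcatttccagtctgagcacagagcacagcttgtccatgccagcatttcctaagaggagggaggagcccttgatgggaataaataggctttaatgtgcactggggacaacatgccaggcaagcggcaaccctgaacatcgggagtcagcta
Serpina1b: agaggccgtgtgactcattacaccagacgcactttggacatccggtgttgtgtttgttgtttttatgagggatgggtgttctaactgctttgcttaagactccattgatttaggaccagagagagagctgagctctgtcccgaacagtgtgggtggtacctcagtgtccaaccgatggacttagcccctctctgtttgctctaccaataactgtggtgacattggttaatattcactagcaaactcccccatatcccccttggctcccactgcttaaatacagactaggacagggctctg
Serpina1c: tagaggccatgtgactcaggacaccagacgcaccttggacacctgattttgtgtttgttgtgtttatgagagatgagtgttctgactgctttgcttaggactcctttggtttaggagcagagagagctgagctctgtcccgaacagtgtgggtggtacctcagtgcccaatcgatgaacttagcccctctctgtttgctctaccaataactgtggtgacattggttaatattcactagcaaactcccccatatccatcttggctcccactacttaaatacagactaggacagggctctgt
The Serpina1b and Serpina1c windows were identical at 276 of 302 aligned columns, or 91.4%, whereas the Serpina3n window matched Serpina1b at 48.0% of the aligned columns. They were searched on both strands for TTCNNNGAA, the pattern that STAT dimers bind, and for the core of the interferon-stimulated response element. In the second, a pair of GAAA letters stands with any 2 bases between, and the patterns may overlap each other. None of the 3 windows held either pattern, which says only that these letters are not in these windows. Of the 33 serpin genes with a window in RefSeq, 6 held the first pattern and 3 the second, or 18.2% and 9.09%, against 9.55% and 3.99% of all 27025 genes.

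Markers of cell types that could carry these serpins were counted beside them, to be read against the 21.9% of all genes that were higher and the 50.4% that passed in either direction. Of 12 hepatocyte markers 3 were higher in KO colon, Hpx, Tat and Apoa1, and none was lower, and the list's summed log2 signal ranged from 11.005 to 11.031 in KO and from 10.860 to 10.909 in control colon. Albumin, the most abundant product of hepatocytes, had a mean log2 signal of 7.81 in KO and 7.78 in control colon, and the fibrinogen genes Fga, Fgb and Fgg were near background in both groups. Of 10 macrophage markers 9 were higher and none lower, with a summed log2 signal of 14.17 to 14.19 in KO and 13.48 to 13.52 in control colon. Of 8 neutrophil markers 3 were higher and 1 lower, with a summed log2 signal of 10.93 to 10.96 in KO and 9.27 to 9.36 in control colon. That sum was carried by S100a8, at a mean log2 signal of 10.07 in KO and 5.87 in control colon, and S100a9, at 8.55 in KO and 6.37 in control colon, whereas Mpo, Camp and Ngp had log2 fold changes of -0.02, 0.00 and -0.05. Of 7 small intestinal enterocyte markers 4 were higher and none lower, with a summed log2 signal of 14.15 to 14.17 in KO and 10.97 to 11.08 in control colon. In KO colon the sum was carried by Fabp6, at a mean of 13.41 against 8.91 in control colon, and Alpi, at 12.32 against 7.23. Lct and Anpep were near background in both groups, and they and Apoa4 did not pass. The part of hepatocytes, leukocytes and enterocytes of this kind in the serpin differences was not tested.

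**Figure D3:**
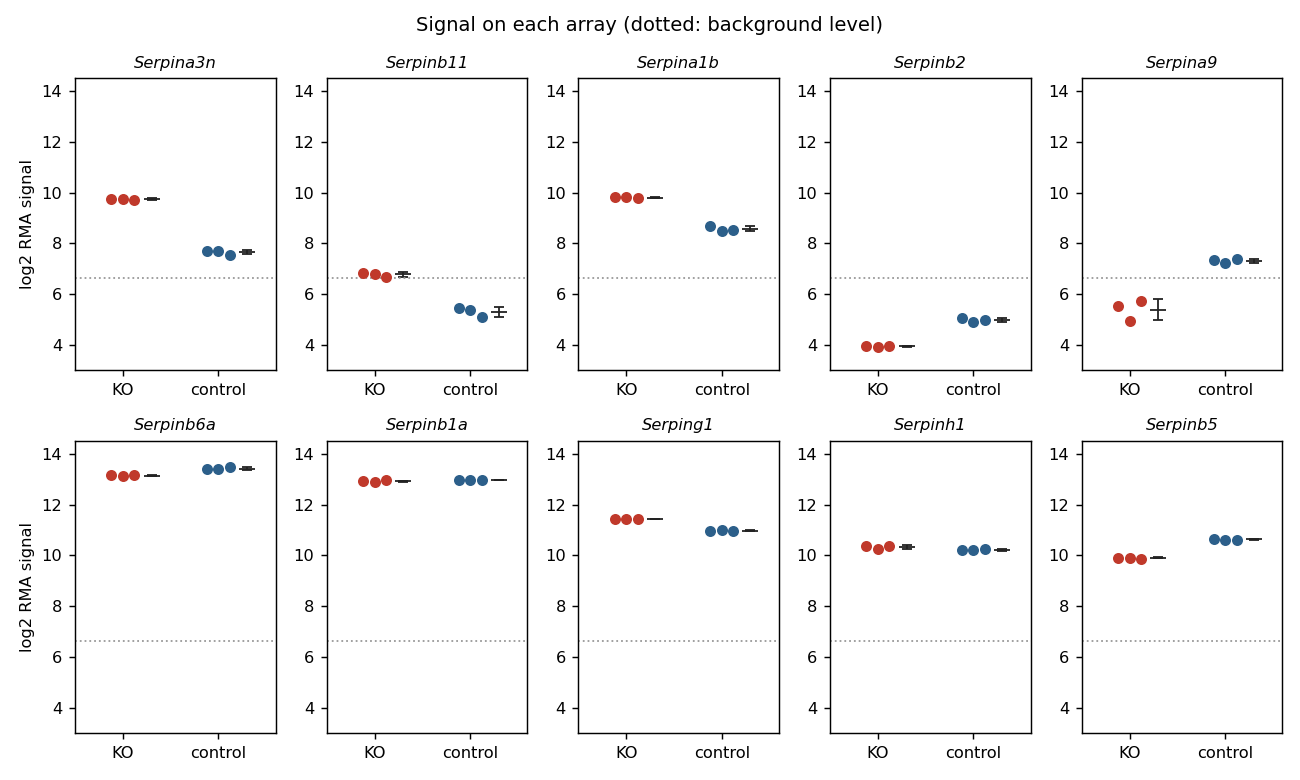
Log2 RMA signal on each array for the 5 serpin genes with over 2-fold differences (top row) and the 5 with the highest mean signal (bottom row), HDAC1/2 KO in red left of control in blue. Bars give the mean ± SD of 3 arrays and the dotted line the background level of 6.63. Of the 10 genes shown, Serpina9 has the widest spread over KO arrays, from 4.94 to 5.71.

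The remaining clade A members comprise hormone carriers and inhibitors of clotting proteases. Of these 8 genes 3 passed the test, or 37.5% beside 50.4% of all genes. Serpina9, or centerin, known from germinal centre B cells in humans, had log2 signals of 5.52, 4.94 and 5.71 in KO colon, against 7.33, 7.22 and 7.39 in control colon. All KO arrays were under the background level and all control arrays above it, and the KO arrays differed among themselves more than the control arrays did. The fitted log2 fold change was -1.92 ± 0.18 SE (limma adjusted p = 9.30e-05). Since the KO mean lay near background, the size of the difference is only bounded, and against the background level itself the gene was at least 1.6-fold lower in KO colon. Of 7 germinal centre and B cell markers 5 were higher and none lower in KO colon, beside 21.9% and 28.4% of all genes. The summed log2 signal of these markers was 11.53 to 11.55 in KO and 10.49 on each array in control colon. Bcl6, a marker on this list, had a log2 fold change of 0.05. The part of B cells in the Serpina9 difference was not tested.

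Serpina10, the protein Z-dependent inhibitor of clotting factor X, was higher in KO colon by a log2 fold change of 0.57 (standard error 0.047, limma adjusted p = 5.58e-05). Its only probe set is of a type whose probes can bind several related transcripts. Serpina12, or vaspin, an adipokine that inhibits kallikrein 7, was higher by 0.27 (limma adjusted p = 0.00408) but was near background in both groups, and its dimmer probe set gave 0.04. The other 5 genes were near background in both groups and did not pass, with log2 fold changes from -0.10 to 0.09. They are Serpina5, the protein C inhibitor, Serpina6, the corticosteroid-binding globulin, Serpina7, the thyroxine-binding globulin, Serpina11, and the pseudogene Serpina4-ps1.

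Among the 4 serpins of coagulation, fibrinolysis and complement, 2 were higher in KO colon, beside 21.9% of all genes. Serping1, the C1 inhibitor that restrains the first proteases of the complement cascade, had log2 signals of 11.420, 11.427 and 11.452 in KO colon, against 10.959, 11.003 and 10.952 in control colon. The groups did not overlap and each was tight. The log2 fold change was 0.46 (standard error 0.04, limma adjusted p = 6.56e-05). Serpinf2, the plasmin inhibitor antiplasmin, was higher by 0.32 (limma adjusted p = 0.00533), with log2 signals of 8.06, 8.23 and 8.10 in KO and 7.72, 7.88 and 7.83 in control colon.

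Serpinc1, or antithrombin, was near background in both groups and did not pass the test, although its arrays did not overlap, at 6.25, 6.44 and 6.33 in KO and 6.61, 6.46 and 6.50 in control colon (log2 fold change -0.18, limma adjusted p = 0.0532). Serpind1, the thrombin inhibitor heparin cofactor II, had a log2 fold change of -0.01 (standard error 0.076), with overlapping arrays.

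The clade B serpins known from stratified squamous epithelium and skin moved in both directions, 1 higher and 3 lower of 6. Serpinb5, or maspin, a member without protease inhibition that is made by many epithelia, had log2 signals of 9.91, 9.91 and 9.87 in KO colon, against 10.66, 10.62 and 10.62 in control colon. The KO arrays were all below the control arrays (log2 fold change -0.73 ± 0.04 SE, limma adjusted p = 7.31e-06). The gene had 4 probe sets, all lower in KO colon, with log2 fold changes from -1.01 to -0.73.

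Serpinb2, the plasminogen activator inhibitor of macrophages and keratinocytes, had log2 signals of 3.94, 3.92 and 3.97 in KO colon, against 5.06, 4.89 and 4.96 in control colon. All 6 arrays were under the background level and the groups did not overlap. The log2 fold change was -1.03 (standard error 0.052, limma adjusted p = 5.17e-06), and without control replicate 1 it was -0.98, short of a 2-fold difference. Its start is shown because it is the only one of the 5 genes with over 2-fold differences whose RefSeq window held a searched pattern, given in capitals at chr1:107511173-107511472 on the plus strand (GRCm38.p6).
Serpinb2: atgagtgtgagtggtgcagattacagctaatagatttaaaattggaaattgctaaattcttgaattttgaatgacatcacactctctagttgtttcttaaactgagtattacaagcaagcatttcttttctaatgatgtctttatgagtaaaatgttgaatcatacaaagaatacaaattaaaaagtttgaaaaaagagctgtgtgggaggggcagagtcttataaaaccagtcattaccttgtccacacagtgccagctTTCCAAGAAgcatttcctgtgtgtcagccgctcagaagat
The capitals mark a match to TTCNNNGAA that begins 10 bases after this start, and a second RefSeq start of the gene lies downstream of the same match. Serpina9 has no entry in the table of windows, and the Serpinb11 window held neither pattern. Among the 5 genes with the highest mean signal, Serpinb6a held 2 matches to TTCNNNGAA and 1 to the other pattern. They lie in its window at chr13:34002745-34003044, which is not shown.

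Serpinb11, an epithelial clade B serpin, had log2 signals of 6.84, 6.81 and 6.67 in KO colon, against 5.46, 5.39 and 5.09 in control colon. It was thus just above the background level on every KO array and under it on every control array. The log2 fold change was 1.46 (standard error 0.099, limma adjusted p = 2.02e-05), and against the background level itself the gene was at least 1.1-fold higher in KO colon. Serpinb3a, a mouse squamous cell carcinoma antigen that inhibits cysteine proteases, was near background in both groups and lower in KO colon by a log2 fold change of -0.60 (limma adjusted p = 0.00375). The only probe set of Serpinb3a is of the type whose probes can bind several related transcripts.

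Serpinb7 and Serpinb12 were near background in both groups and did not pass the test, at 0.13 and -0.11 on the log2 scale. For Serpinb12 the dimmer probe set was lower in KO colon (log2 fold change -0.69, limma adjusted p = 2.46e-04), so its probe sets disagreed. Of 14 markers of stratified squamous epithelium, 10 were lower and 1 higher in KO colon, beside 28.4% and 21.9% of all genes. The summed log2 signal of these markers was 10.68 to 10.74 in KO and 12.07 to 12.19 in control colon. Krt10 and Krt6b, named after their values were seen, were near background in KO colon and at least 7.84-fold and 5.83-fold lower there than in control colon. The part of squamous tissue in the lower signals of Serpinb5, Serpinb3a and Serpinb2, and in the higher signal of Serpinb11, was not tested.

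Of the 12 clade B serpins of leukocytes and cytosol, 3 were higher and 1 lower in KO colon. That is 25.0% and 8.33%, beside 21.9% and 28.4% of all genes. This group holds the highest signals of the family. Serpinb6a, an intracellular inhibitor of cathepsin G and trypsin-like proteases, had log2 signals of 13.15, 13.13 and 13.15 in KO colon, against 13.40, 13.39 and 13.47 in control colon. The KO arrays were all lower, by a small amount (log2 fold change -0.27 ± 0.042 SE, limma adjusted p = 0.00134).

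Serpinb1a, the leukocyte elastase inhibitor that protects cells from neutrophil serine proteases, had log2 signals of 12.91, 12.88 and 12.95 in KO colon, against 12.97, 12.95 and 12.96 in control colon. The arrays of the groups met at 12.95 and the difference did not pass the test by limma (-0.04 ± 0.041 SE on the log2 scale, adjusted p = 0.45). Its second probe set gave 0.04. Serpinb1b, a related gene, was near background in both groups and higher by a log2 fold change of 0.20 (limma adjusted p = 0.0222), and it no longer passed without KO replicate 3 (adjusted p = 0.0736) or without control replicate 3 (adjusted p = 0.0701).

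Serpinb8, an intracellular inhibitor of furin, was higher by 0.52 on the log2 scale (limma adjusted p = 0.00205), with both of its probe sets higher, although it was near background in both groups. Serpinb6b had log2 signals of 7.31, 7.32 and 7.40 in KO and 6.92, 6.86 and 7.20 in control colon, with control replicate 3 nearest to the KO arrays. Its log2 fold change was 0.35 (limma adjusted p = 0.0143), and without KO replicate 3 it did not pass (adjusted p = 0.0514).

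Serpinb9, the granzyme B inhibitor by which cytotoxic lymphocytes protect themselves, had log2 signals of 8.42, 8.36 and 8.42 in KO and 8.34, 8.29 and 8.30 in control colon. The groups did not overlap, but the difference was small and did not pass (log2 fold change 0.09 ± 0.041 SE, limma adjusted p = 0.125). Of 10 cytotoxic lymphocyte markers 7 were higher and none lower in KO colon, beside 21.9% and 28.4% of all genes. The summed log2 signal of the 10 markers was 10.62 to 10.72 in KO and 9.73 to 9.79 in control colon. Of the higher markers, Gzma, Gzmb, Nkg7 and Klrd1 were near background in control colon, and Ncr1 and Cd8b1 in both groups. The part of these cells in the Serpinb9 signal was not tested. The other clade B serpins of this group, Serpinb6c, Serpinb6e, Serpinb9b, Serpinb9c, Serpinb9d and Serpinb9g, did not pass, with log2 fold changes from -0.06 to 0.10. Only Serpinb6e and Serpinb9b of these were above background.

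None of the 3 serpins of matrix, chaperone and nervous system function passed the test, beside 50.4% of all genes. Serpinh1, the collagen chaperone HSP47, had log2 signals of 10.36, 10.23 and 10.36 in KO colon, against 10.22, 10.19 and 10.26 in control colon. The groups overlapped (log2 fold change 0.10 ± 0.05 SE, limma adjusted p = 0.179), and its second probe set gave -0.08. Serpinf1, the pigment epithelium-derived factor, had a log2 fold change of -0.09 (limma adjusted p = 0.11) with arrays that did not overlap, and its dimmer probe set gave 0.08. Serpini1, or neuroserpin, an inhibitor of tissue plasminogen activator, had a log2 fold change of 0.07 with arrays that did not overlap, while its 2 dimmer probe sets gave -0.10 and -0.00. Of 8 collagen genes, the clients of Serpinh1, 1 was higher and 4 were lower in KO colon, with log2 fold changes of -0.37 for Col1a1, -0.30 for Col3a1 and -0.27 for Col4a1. This count and the marker counts that follow stand beside 21.9% of all genes higher and 28.4% lower. Markers of the cells of the bowel wall were mostly lower. Of 7 fibroblast markers 2 were higher and 4 lower, with a summed log2 signal of 14.46 to 14.49 in KO and 14.58 to 14.60 in control colon, and all 6 smooth muscle markers were lower, at 15.63 to 15.69 in KO and 16.00 to 16.02 in control colon. Of 7 endothelial markers 4 were lower and none higher, with a sum of 10.72 to 10.84 in KO and 10.87 to 10.93 in control colon. Of 8 enteric neuron and glia markers 4 were lower and none higher, with a sum of 10.38 to 10.47 in KO and 10.63 to 10.72 in control colon. The part of these cells in the signals of the 3 serpins and of the collagens was not tested.

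Most serpin genes lie in a few clusters, and not all genes of these were measured. RefSeq lists 28 serpin genes on chromosome 12, 14 on chromosome 1 and 17 on chromosome 13, of which 13, 8 and 11 were measured. Measured genes next to each other often differed in direction or in passing the test, and need not be adjacent on the chromosome. On chromosome 12, 13 measured genes run from Serpina10 to Serpina3n, of which 5 were higher, 1 was lower and 7 did not pass. These counts stand beside 21.9% of all genes higher and 28.4% lower, with 50.4% passing in either direction. Serpina9, at -1.92, is followed along the chromosome, among the measured genes, by Serpina12 at 0.27 and preceded by Serpina11 at 0.08. On chromosome 1, Serpinb5, Serpinb12, Serpinb3a, Serpinb11, Serpinb7, Serpinb2 and Serpinb8 follow each other, and Serpinb11 at 1.46 lies among the measured genes between Serpinb3a at -0.60 and Serpinb7 at 0.13. On chromosome 13, 11 measured genes had log2 fold changes from -0.27 to 0.35. Gene order was taken from the RefSeq annotation.

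**Figure D4:**
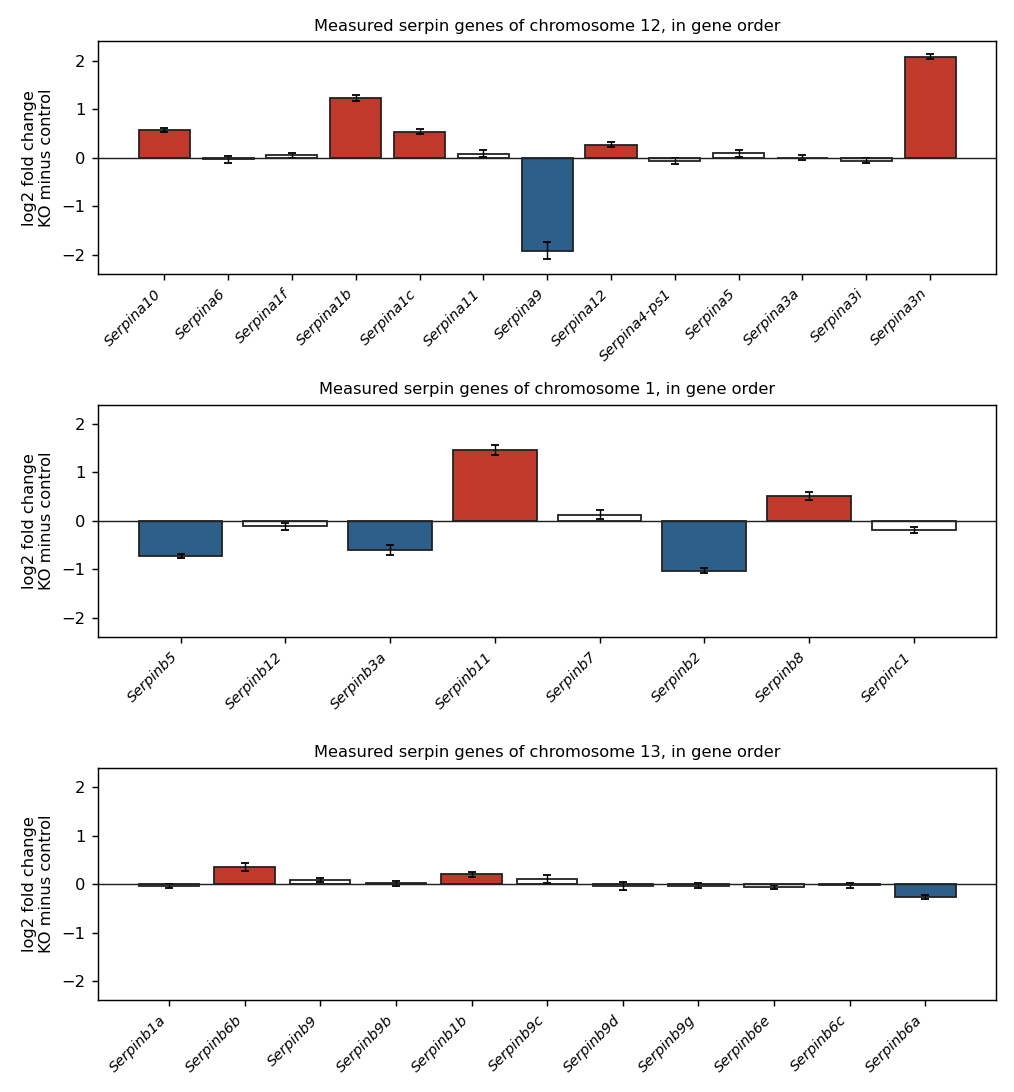
Log2 fold change, HDAC1/2 KO minus control, of the measured serpin genes of chromosomes 12, 1 and 13 in their order along the chromosome (distances not drawn), with limma's standard error as a bar. Red and blue bars passed an adjusted p under 0.05 and white bars did not. The bars of chromosome 13 stay between -0.27 and 0.35, whereas those of chromosome 12 reach 2.08 and -1.92.

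The proteases that serpins act on were examined as lists beside them. Of 33 serine proteases, 13 were higher and 5 lower in KO colon, with a median log2 fold change of 0.136 against -0.022 over all genes. Over all genes, 21.9% were higher and 28.4% lower. The digestive enzymes Cela2a, Ctrb1 and Prss2 had the largest changes of the list, at fitted values of 7.40, 4.89 and 4.87 on the log2 scale. Cela2a was near background in control colon, with arrays at 5.94, 5.14 and 4.24, and against the background level it was at least 58.5-fold higher in KO colon. Of 10 pancreatic acinar markers 9 were higher and 1 lower in KO colon, with a summed log2 signal of 15.38 to 15.43 in KO and 13.78 to 13.81 in control colon, and 3 of these markers are the enzymes just named. The part of pancreatic RNA in these values, and in those of the serpins, was not tested.

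Other proteases are named after their values were seen, as partners of the serpins above, and some targets that did not pass are given with them. The complement proteases C1s1 and C1ra, which Serping1 inhibits, were higher by log2 fold changes of 1.03 and 0.82. Masp1, Masp2, Klkb1, F11 and F12 of the same list did not pass, with log2 fold changes from -0.05 to 0.14. The plasminogen activators Plat and Plau were higher by 0.89 and 0.69, with Plau near background in control colon. Gzma, Gzmb and the mast cell protease Mcpt1 were near background in control colon, and against the background level they were at least 2.25-fold, 1.58-fold and 6.37-fold higher in KO colon. The mast cell chymase Cma1 was near background in KO colon and at least 2.34-fold lower there, and the kallikrein Klk1 had a log2 fold change of -1.06. The mast cell proteases Mcpt4, Tpsab1 and Tpsb2 were near background in both groups and did not pass. Among other targets, F10 of Serpina10, Ctsg of Serpinb6a and Plg of Serpinf2 were near background in both groups and did not pass. Their log2 fold changes were 0.15, -0.09 and -0.12. F2, the thrombin gene, was near background in both groups and did not pass, at 0.15. Klk7, which Serpina12 inhibits, was also near background in both groups and was higher by 0.24 (limma adjusted p = 0.00483).

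Elane, which encodes neutrophil elastase, the textbook target of antitrypsin and of Serpinb1a, had log2 signals of 6.58, 6.69 and 6.54 in KO colon, against 6.84, 6.76 and 6.71 in control colon, with the KO mean near background. The groups did not overlap, with KO lower. Its log2 fold change was -0.17 (limma adjusted p = 0.0498). Of 5 cysteine proteases that clade B serpins inhibit, none was higher and 2 were lower in KO colon, Ctss at -0.49 and Ctsh at -0.38. Of 8 receptors and cofactors that bind serpins or their complexes, 3 were higher and none lower: the urokinase receptor Plaur at 0.89, the clearance receptor Lrp1 at 0.42 and the proteoglycan Sdc1 at 0.39. Both counts stand beside 21.9% of all genes higher and 28.4% lower.

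Inhibitors of serine proteases outside the serpin family were also measured, and of 25 such genes 6 were higher and 10 lower in KO colon. Over all genes the shares were 21.9% and 28.4%. Ambp, the precursor of bikunin, had log2 signals of 11.75, 11.78 and 11.70 in KO colon, against 6.42, 6.32 and 6.36 in control colon. Against the background level, under which its control signal lay, Ambp was at least 34.6-fold higher in KO colon. Itih2, a heavy chain that bikunin joins, was near background in KO colon and at least 4.85-fold lower there, and the whey acidic protein family member Wfdc12 had a log2 fold change of 2.28. Slpi, the secretory leukocyte protease inhibitor of mucosal surfaces, named after its value was seen, was higher by 1.17.

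**Figure D5:**
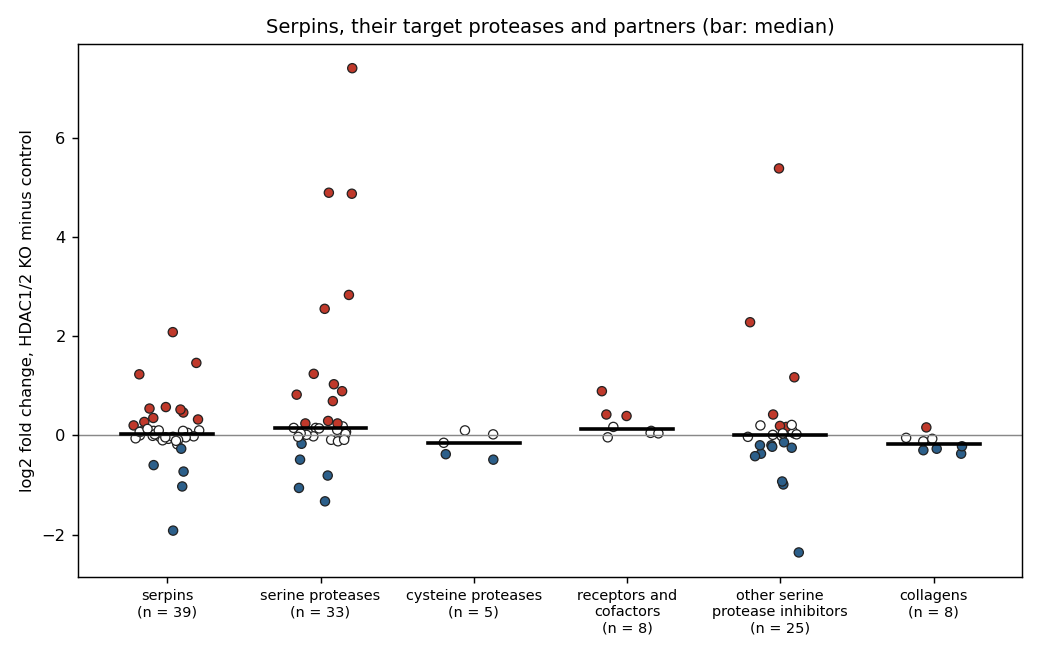
Log2 fold change, HDAC1/2 KO minus control, of the serpin genes and of 5 lists of proteases, receptors and cofactors, other inhibitors and collagens, with 1 point per gene and a bar at the median. Red and blue points passed an adjusted p under 0.05 and white points did not, and sideways position within a list carries no meaning. The 3 highest serine proteases are Cela2a, Ctrb1 and Prss2.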

How the data were processed

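Colon RNA of 3 HDAC1/2 KO and 3 control mice was measured on 6 Affymetrix Mouse Genome 430 2.0 arrays. The authors deposited log2 signals per probe set, background-corrected and normalized by RMA in Flexarray 1.6.1. The labels gave each sample's group and number. The members, the lists and the tests were chosen with earlier results of these data known. Of 45101 probe sets, 64 are array controls and were dropped, and lmFit and eBayes of limma 3.58.1 (R 4.3.3) were run on the remaining 45037 for KO minus control, two-sided and without covariates, with Benjamini-Hochberg adjustment across them all. Names come from the platform annotation, which gives 34945 of them 1 symbol, 932 several and 9160 none. Array by array values are given for serpins past the adjusted p with an absolute log2 fold change above 1, for the 5 with the highest mean signal, and for a few others chosen after their values were seen. Of each list of proteases, receptors and cofactors, other inhibitors and collagens, up to 3 genes with the largest fitted changes past the test are named, and cell type markers and other genes named were chosen after their values were seen. Where 1 group was near background, the bound given is the mean of the other group over the background level. The summed log2 signal of a marker list is the log2 of the sum of its linear signals. Alternatives tried were the t-test of the methods, raw and adjusted, other scalings, filters, probe set rules, array weights, the replicate block and leaving out each array. The fit was tested on simulated data. Arrays correlated at 0.9984 to 0.9988 within a group and at 0.9824 to 0.9828 between groups over all probe sets, and probe sets are not independent of each other. The number of arrays limits the precision, and differences of genes near background are compressed on the RMA scale. No scan date or batch is given in the sources used here, so none was tested.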

Additional observations from a re-analysis of the deposited data

How the results depend on the processing

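Under 16 alternative settings no serpin gene that passed the test changed direction, and 12 of the 16 passed in every setting that tested them (a gene whose probe sets a filter removed has no value there). When probe sets below the 40th percentile were dropped, which left 20 serpin genes, 7 were higher, and 1 was more than 2-fold lower. Without the probe sets whose probes can bind several related transcripts, 34 serpin genes were left and 13 passed, 9 higher and 4 lower. Serpina10, Serpina1b and Serpinb3a had no value in that setting. Leaving out 1 array at a time left 1 to 2 genes more than 2-fold lower, with 1 without control replicate 1. Serpina12 did not pass as the mean of its probe sets (adjusted p = 0.132), and Serpinb3a, Serpinb6b and Serpinb1b did not pass after Benjamini-Hochberg adjustment of the methods' test, which left 14 genes called, against 17 at its unadjusted threshold. Of the 23 genes that did not pass, 9 changed sign in some setting and 6 passed in some setting, among them Serpinc1 in 6 settings and Serpinb12 as the mean of its probe sets (log2 fold change -0.40). With the 40th percentile of all probe sets as the background level, 17 serpin genes were near background, against 20. The deviations of same-numbered KO and control samples correlated at 0.0964, 0.064 and -0.0258, and those of the other pairs at -0.103 to 0.0304. The labels give only a number, and these values cannot show whether same-numbered samples were paired. With the replicate block, 15 serpin genes passed, 10 higher and 5 lower, with 3 and 2 past a 2-fold difference, and Serpinb1b was the gene lost (adjusted p = 0.0564).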
